A study of Mus musculus with 4 samples.

Results

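The 9 genes described here, Serpina3n, Lcn2, Chil1, Steap4, Cp, Ptgs2, Ptx3, Osmr and Ttr, code for proteins of the acute-phase and reactive response of astrocytes, most of them secreted, out of 55487 genes counted in primary cultured mouse astrocytes. They were chosen by name with values of these libraries known: Serpina3n, Lcn2, Chil1 and Ttr were among the genes called lower with doxorubicin in a fit across all genes, and the others are acute-phase or reactive astrocyte genes. Their values are therefore given as a description without a test. All 9 were found by symbol and averaged at least 1 CPM, which is the library-scaled count on a common scale, as did 15596 genes in all. Serpina3n, Lcn2, Chil1, Cp, Ptx3 and Ttr code for secreted proteins, Steap4 and Ptgs2 for membrane-bound enzymes, and Osmr for a receptor at the cell surface.

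The study compared astrocytes labelled OASIS wild type with astrocytes labelled OASIS deficient, each untreated or given doxorubicin, a drug that damages DNA by trapping topoisomerase II. Cells 5 days past confluence had the drug at 1 µg/ml for 1 h, and 24 h of culture in changed medium followed. Creb3l1 codes for OASIS, which sits in the endoplasmic reticulum membrane until its cut-off part enters the nucleus as a transcription factor. The 4 groups have 1 library each, and differences between them have no replicate check. The mouse strain, the age, the allele and the number of animals behind a culture are not given in the labels used here. Total counts ran from 17481188 to 22559613.

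Checks of the labels bear on every value below. Creb3l1 had 966 and 636 counts in the wild-type libraries, untreated and doxorubicin, and 260 and 235 in the deficient ones, so it was lower but present in both libraries labelled deficient. Xist, the RNA of the inactive X chromosome, had 1 and 0 counts in the untreated libraries and 2547 and 2742 in those labelled doxorubicin, while the Y-linked gene Ddx3y had 1567 and 742 counts untreated and 0 in both doxorubicin libraries. Treatment label and sex of the culture cannot be told apart in any comparison of doxorubicin with untreated. Astrocyte markers were abundant in each library, with Gfap between 1120 and 6590 CPM. Markers of microglia summed to 1770, 1270, 1650 and 1100 CPM in wild type untreated, wild type with doxorubicin, deficient untreated and deficient with doxorubicin, the order kept for all values below. In such bulk RNA, fewer cells of a type and less RNA per cell cannot be told apart.

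The acute-phase response is the change in secreted proteins that inflammation brings about, best known in liver. Cytokines of the interleukin-6 family signal through the shared receptor chain gp130 (Il6st) and the factor STAT3, and interleukin-1 and tumour necrosis factor signal through NF-kB, with C/EBP factors acting downstream of both. Reactive astrocytes of injured or inflamed brain switch on many of the same genes, and Lcn2 and Serpina3n are among the markers most often used for that state.

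The libraries labelled doxorubicin held lower levels than their untreated partners for all 9 genes in deficient and for all but Ptgs2 and Osmr in wild type, and Lcn2, Chil1, Steap4, Cp and Ptgs2 were lower in deficient than in wild type while Ptx3, Osmr and Ttr were higher. Ratios between libraries are given as log2 of CPM after 1 CPM was added to each value, which understates the change of low genes. In the wild-type pair, 7 of 9 were below 0 with doxorubicin, with a median of -0.39, against 50.3% of all genes tested. In deficient, 9 of 9 were below 0 with a median of -0.83, against 45.7% of all genes. The medians of all genes lay between -0.03 and 0.03 in each comparison. A difference of at least 2-fold was held by 1 member in wild type, Serpina3n, and by 2 in deficient, Serpina3n and Ptgs2, all lower. At least 2-fold lower were 5.45% of all genes in wild type and 1.93% in deficient, and at least 2-fold higher were 4.08% and 1.58%. The members were chosen on this contrast, so nothing is read from their counts.

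Between genotypes, 2 members were at least 2-fold lower in deficient without treatment, Lcn2 and Ptgs2, and 1, Osmr, was at least 2-fold higher. In the same pair of libraries 10.2% of all genes were lower and 9.79% higher by that size. With doxorubicin 4 members were at least 2-fold lower, Lcn2, Chil1, Steap4 and Ptgs2, and 0 were higher, against 9.55% and 10.7% of all genes. The members' medians were -0.80 and -0.94, with extremes of -1.10 and 1.01 without treatment and -2.72 and 0.74 with it. The 4 comparisons share libraries with each other and do not count as separate evidence.

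**Figure D1:**
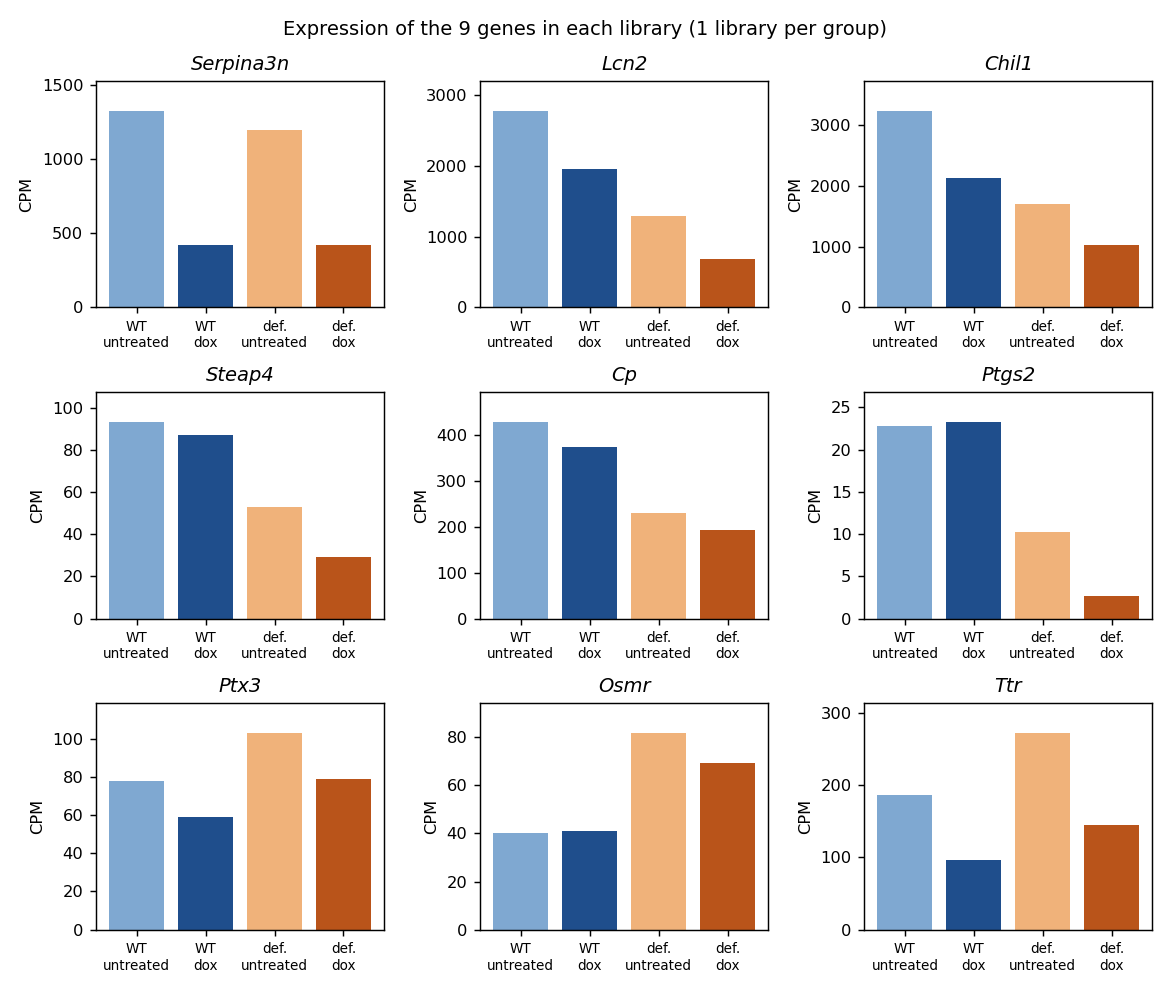
Bars give CPM in the single library of each group (WT, wild type; def., deficient; dox, doxorubicin), from a y axis that starts at 0 and is scaled for each gene. Serpina3n and Ttr are low in both doxorubicin libraries, Lcn2, Chil1, Steap4 and Cp are low in both deficient libraries, and Ptgs2 is lowest in deficient with doxorubicin at 2.68 CPM.

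Serpina3n (ENSMUSG00000021091.8, GRCm38 chromosome 12, 104406729 to 104414329, plus strand) codes for a secreted inhibitor of serine proteases, a mouse counterpart of alpha-1-antichymotrypsin. Its counts were 26574 (wild type, untreated), 9589 (wild type, doxorubicin), 20660 (deficient, untreated) and 8305 (deficient, doxorubicin), which is 1330, 419, 1200 and 420 CPM. Both untreated libraries were high and both doxorubicin libraries were low. The doxorubicin level was 31.4% of untreated in wild type (30.6 to 32.1%) and 35.0% in deficient (34.1 to 35.9%), with log2 ratios of -1.67 and -1.51. Percentages and their 95% intervals here and below are ratios of CPM with nothing added, the intervals are exact binomial ones, and they hold counting error alone. Among all genes tested, 1.46% had a lower ratio in wild type and 0.365% in deficient. Serpina3n was chosen with its doxorubicin call known, so nothing is read from this standing.

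The genotypes held similar levels of Serpina3n. Untreated, deficient stood at 89.9% of wild type (88.3 to 91.6%), and with doxorubicin at 100% (97.4 to 103%), where the interval holds equality. On the TPM scale, which corrects for transcript length, Serpina3n ranked 128th of all genes in wild type untreated and 181st in deficient untreated, and 550th and 613th with doxorubicin.

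The Serpina3 genes lie in a cluster of similar copies, and 6.9% of the 50-base words in Serpina3n transcripts also occur in transcripts of other genes, which makes a small part of its count uncertain. Serpina3m, the nearest measured relative by level, had 64 and 46 counts in the untreated libraries and 0 in both doxorubicin libraries. With a floor of 3 counts per library in place of 0, Serpina3m was at least 24.5-fold lower in wild type and 17.6-fold lower in deficient. These bounds hold counting error alone, and a count of 0 in 1 library has no replicate check. Serpina3m was not called in the doxorubicin fit across all genes (SE 1.9, adjusted p 0.123 by edgeR). Of its own 50-base words 19.1% occur in transcripts of other genes, so its few counts may belong to other copies. The other 9 Serpina3 genes in the list of relatives had at most 17 counts in any library.

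The 5 genes with a mean of at least 5 CPM whose pattern over the 4 libraries lay nearest to Serpina3n were Gpr176, Pik3r5, Pygl, Neurl3 and Tspyl3, with root mean square differences of 0.115 to 0.185 between centred log2 values. Gpr176, an orphan receptor gene and the nearest, had 193, 43, 141 and 35 counts. Pygl, the liver glycogen phosphorylase, had 353, 125, 259 and 130. Among the other members Ttr was nearest, at 0.463 and 101st of 12047 genes, and Ptgs2 was farthest, at 1.095. Serpina3n and Ttr were both chosen with their lower doxorubicin values in these libraries known, so nothing is read from that rank.

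Promoter stretches of Serpina3n, Chil1 and Steap4 are printed because these genes show different patterns: Serpina3n was low in both doxorubicin libraries, Chil1 was low with either label, and Steap4 was low in both deficient libraries and lowest in the one with doxorubicin. They come from RefSeq windows on GRCm38.p6, upstream of the start site and outside exons of GENCODE vM21, and 8 of the 9 members had an entry, with 9 windows in all. Capitals mark matches, on either strand, to a STAT element (TTCNNNGAA) and a C/EBP half-site pattern (TTGCNNAA or TTNNGCAA). They also mark the core of the cAMP response element that CREB-like factors bind (TGACGT) and the kappaB consensus. The stretches lie at chr12:104406458-104406707, chr1:134181906-134182155 and chr5:7960347-7960456, each on the plus strand.
Serpina3n: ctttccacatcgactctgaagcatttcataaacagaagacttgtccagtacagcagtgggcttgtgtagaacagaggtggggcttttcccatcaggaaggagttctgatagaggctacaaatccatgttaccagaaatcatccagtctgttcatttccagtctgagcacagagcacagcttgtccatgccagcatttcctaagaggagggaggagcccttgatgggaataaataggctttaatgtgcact
Chil1: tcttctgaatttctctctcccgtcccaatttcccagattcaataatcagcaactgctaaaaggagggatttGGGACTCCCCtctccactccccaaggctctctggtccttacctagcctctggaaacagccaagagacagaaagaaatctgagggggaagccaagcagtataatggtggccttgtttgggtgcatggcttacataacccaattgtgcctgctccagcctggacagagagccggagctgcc
Steap4: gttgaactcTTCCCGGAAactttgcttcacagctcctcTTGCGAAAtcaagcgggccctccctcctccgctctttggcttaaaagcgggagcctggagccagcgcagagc

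In the 250 bases before each start, a STAT element was found in 1 of 9 member windows (Steap4), a C/EBP match in 5 (Lcn2, Ptgs2, Ptx3, Steap4 and the downstream one of the Cp windows), a kappaB match in 2 (Chil1 and, outside the printed stretch, Steap4) and a TGACGT core in 0. The shares among all 32851 windows of that length were 7.02%, 9.56%, 7.25% and 6.47%. The Serpina3n window held none of these letters. A match is only a run of letters, and no match says nothing about a factor.

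Lcn2 (ENSMUSG00000026822.14, GRCm38 chromosome 2, 32384633 to 32388252, minus strand) codes for lipocalin 2, a small secreted protein that binds iron through siderophores. Its counts were 55339, 44865, 22253 and 13532, or 2780, 1960, 1290 and 684 CPM. The level was highest in wild type untreated and lowest in deficient with doxorubicin, a 4.06-fold span in CPM. With doxorubicin it stood at 70.5% of untreated in wild type (69.6 to 71.4%) and 52.9% in deficient (51.8 to 54.1%). Deficient stood at 46.5% of wild type when untreated (45.8 to 47.2%) and at 34.9% with doxorubicin (34.3 to 35.6%). By TPM, Lcn2 was the most abundant member in each library, from 5640 TPM and rank 13 in wild type untreated to 1240 TPM and rank 89 in deficient with doxorubicin.

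Chil1 (ENSMUSG00000064246.10, GRCm38 chromosome 1, 134182176 to 134190181, plus strand) codes for chitinase-3-like protein 1, a secreted lectin without chitinase activity also known as YKL-40. It had 64311, 48434, 29205 and 20096 counts, or 3230, 2120, 1700 and 1020 CPM, in the same order of libraries as Lcn2. The doxorubicin level was 65.5% of untreated in wild type (64.7 to 66.3%) and 59.9% in deficient (58.8 to 61.0%). Deficient stood at 52.5% of wild type untreated (51.8 to 53.3%) and 48.0% with doxorubicin (47.3 to 48.8%). No 50-base word of Lcn2 or Chil1 occurs in transcripts of other genes. Of the related genes, Chil4 was at 0 in every library, Chil3 and the chitinase gene Chit1 had at most 9 counts in a library, and the chitinase gene Chia1 had 12, 13, 12 and 35.

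Neutrophils also make Lcn2 and Chil1. Of 10 neutrophil markers, Ltf, S100a9, Elane and Retnlg were at 0 in every library, and the list summed to 6.58, 4.54, 5.17 and 1.16 CPM. Most of that sum was Mmp8, a collagenase gene, with 119, 81, 79 and 19 counts, highest in wild type untreated and lowest in deficient with doxorubicin, as Lcn2 and Chil1 were. S100a8 had 0, 17, 9 and 4 counts, and the part of neutrophils in the members' values was not tested. Microglia markers were lower with doxorubicin beside Serpina3n, Lcn2, Chil1 and Ttr, with 15 of 16 below 0 in wild type (median -0.43) and 16 of 16 in deficient (median -0.64). The part of microglia in the members' values was not tested.

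Other genes were tested in fits across all 15596 genes that take genotype and treatment as terms over the 4 libraries. These additive fits leave 1 residual degree of freedom, which is how far the doxorubicin response differs between the genotypes. Their p-values, from edgeR's quasi-likelihood test after Benjamini-Hochberg adjustment, rest on that residual with information pooled across genes. They hold no spread between replicate cultures. In the doxorubicin fit 0.0192% of all genes were called higher and 0.141% lower, and in the genotype fit 12.6% were called higher and 10.6% lower in deficient. Of the 16 microglia markers, 1 fell with doxorubicin, the complement gene C1qb, with a log2 effect of -0.65 (SE 0.117, adjusted p 0.0377 by edgeR). The doxorubicin calls named here and below, C1qb, Hpgd, Saa3 and Enpp2, were each lost when genotype was left out of the model, at adjusted p of 1.0 by edgeR, and when low genes were kept, at 0.102 to 0.163.

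Steap4 and Cp handle metals. Steap4 (ENSMUSG00000012428.9, GRCm38 chromosome 5, 7960457 to 7982213, plus strand), a membrane reductase of iron and copper, had 1862, 1999, 916 and 582 counts, or 93.5, 87.3, 53.2 and 29.4 CPM. The wild-type libraries lay close together, at 93.3% with doxorubicin (87.6 to 99.5%), while the deficient doxorubicin library had 55.3% of its untreated partner (49.8 to 61.4%). Deficient stood at 56.9% of wild type untreated (52.5 to 61.6%) and 33.7% with doxorubicin (30.7 to 37.0%). The difference of both doxorubicin log2 ratios, deficient minus wild type, was -0.74, and it was not tested.

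Cp (ENSMUSG00000003617.16, GRCm38 chromosome 3, 19957054 to 20009145, plus strand) codes for ceruloplasmin, a copper-holding enzyme that oxidises iron for export and that astrocytes also carry on their surface. Its counts were 8536, 8562, 3979 and 3844, or 429, 374, 231 and 194 CPM. Doxorubicin and untreated lay near each other in both genotypes, at 87.2% (84.6 to 89.9%) and 84.1% (80.4 to 87.9%). The deficient libraries had 53.9% of wild type untreated (51.9 to 56.0%) and 52.0% with doxorubicin (at most 54.0%), a similar share in both. Cp overlaps Hps3 on the opposite strand, which had 226 to 394 counts, and reads from such overlaps cannot be assigned by a kit that does not mark strand.

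**Figure D2:**
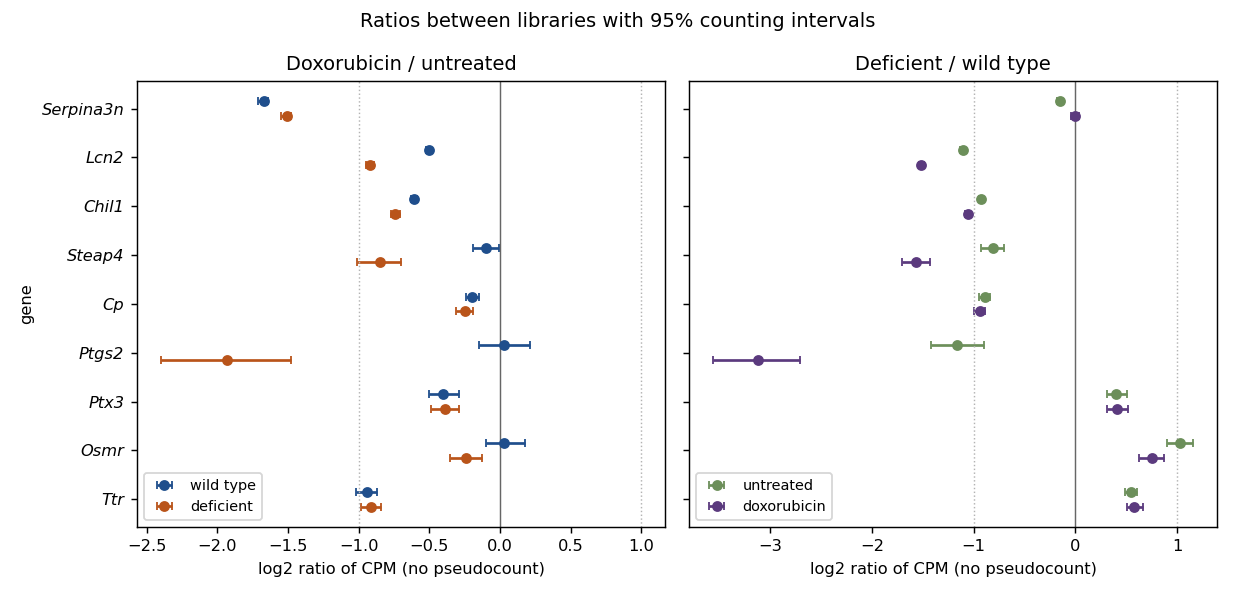
Points are log2 ratios of CPM between single libraries without a pseudocount, doxorubicin over untreated in the left panel and deficient over wild type in the right one, with 95% counting intervals as bars and dotted lines at a 2-fold difference. Ptgs2 and Steap4 have the widest separation between the genotypes in the left panel, and Ptx3, Osmr and Ttr lie to the right of 0 in the right panel.

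Of 18 other genes of iron and copper handling tested, 6 fell in deficient, 0 rose and the others were not called, with the haem oxygenase gene Hmox1 lower by a log2 effect of -1.20 (SE 0.111, adjusted p 1.06e-06 by edgeR) and the transferrin receptor gene Tfrc by -1.09 (SE 0.205, adjusted p 0.00106 by edgeR). The iron exporter gene Slc40a1 had a log2 effect of -1.01 and did not pass (adjusted p 0.113 by edgeR). In the doxorubicin fit 0 of 18 were called, a share near that of all genes.

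Ptgs2 (ENSMUSG00000032487.8, GRCm38 chromosome 1, 150100031 to 150108227, plus strand) codes for the inducible cyclooxygenase COX-2, which makes the precursor of prostaglandins and is an enzyme of the cell, not a secreted protein. It was the least abundant member, with 454, 534, 176 and 53 counts, or 22.8, 23.3, 10.2 and 2.68 CPM. In wild type the libraries differed by less than counting error, at 102% with doxorubicin (90.1 to 116%). In deficient the doxorubicin library had 26.2% of the untreated one (18.9 to 35.8%). The deficient level was 44.8% of wild type untreated (37.5 to 53.5%) and 11.5% with doxorubicin (8.5 to 15.3%). The difference of its doxorubicin log2 ratios, deficient minus wild type, was -1.64, the only one of the 9 of at least 2-fold, with the other 8 between -0.74 and 0.16.

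The prostaglandin pathway went both ways with genotype, with 2 of 19 called higher and 4 lower. Slco2a1, a prostaglandin transporter gene, had 317, 359, 57 and 18 counts and a genotype log2 effect of -3.12 (SE 0.548, adjusted p 0.000608 by edgeR). Ptgr1, a prostaglandin reductase gene, had 5782, 5884, 1202 and 1302 and a log2 effect of -2.01 (adjusted p 2.03e-08 by edgeR). Ptgs1, the constitutive cyclooxygenase, had 237, 126, 372 and 313 counts and rose by 1.19 in deficient (SE 0.369, adjusted p 0.0288 by edgeR), a call lost under DESeq2 (adjusted p 0.0647), with no covariate (0.114) and with low genes kept (0.068). With doxorubicin 1 of 19 was called, Hpgd, the enzyme that breaks prostaglandins down. Hpgd had 586, 217, 925 and 401 counts, a log2 effect of -1.52 (SE 0.256, adjusted p 0.0216 by edgeR).

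Ptx3 (ENSMUSG00000027832.5, GRCm38 chromosome 3, 66219910 to 66225805, plus strand) codes for a long pentraxin, a secreted pattern recognition protein. It had 1551, 1354, 1775 and 1558 counts, or 77.9, 59.1, 103 and 78.8 CPM, the narrowest span of the 9 at 1.74-fold. The doxorubicin level was 75.9% of untreated in wild type (70.5 to 81.7%) and 76.4% in deficient (71.3 to 81.8%). Deficient was above wild type, at 132% untreated (124 to 142%) and 133% with doxorubicin (124 to 143%). On TPM the log2 ratio of deficient over wild type untreated was 0.08, against 0.40 on CPM. With doxorubicin it was 0.34, against 0.41. Deficient with doxorubicin and wild type untreated were almost level, at 78.8 and 77.9 CPM. Ptx3 lies within Veph1 on the opposite strand, which had 57 to 292 counts, and shares no 50-base word with other transcripts.

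Osmr (ENSMUSG00000022146.12, GRCm38 chromosome 15, 6813577 to 6874969, minus strand) codes for the chain that pairs with gp130 to receive oncostatin M. It had 798, 940, 1406 and 1365 counts, or 40.1, 41.1, 81.7 and 69.0 CPM, so both deficient libraries were above both wild-type ones. In wild type the doxorubicin library had 102% of the untreated one (93.1 to 113%), a difference within counting error, and in deficient 84.5% (78.4 to 91.1%). The deficient level was 204% of wild type untreated (187 to 223%) and 168% with doxorubicin (155 to 183%). The log2 ratio of 1.01 without treatment was 0.96 when scaled by total counts, 0.94 with 5 CPM added and 0.82 on TPM, all under the 2-fold size.

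In the rest of the gp130 pathway, 8 of 26 genes tested were called higher and 4 lower in deficient. Over all 26 the list had no single direction: 11 were below 0 untreated and 12 with doxorubicin, with median log2 ratios of 0.43 and 0.09, which on TPM were 0.12 and -0.12. Il6st, the gp130 chain itself, had 2475, 2206, 2865 and 4127 counts and rose, with a log2 effect of 0.77 (SE 0.159, adjusted p 0.00226 by edgeR). Stat3 had 4107, 3311, 4829 and 5393 and rose by 0.68 (adjusted p 0.00142 by edgeR). Socs3, the feedback inhibitor that STAT3 switches on, had 424, 687, 1082 and 870 counts and rose by 1.05 (SE 0.257, adjusted p 0.00714 by edgeR). Cebpd, a C/EBP factor of the acute phase, had 2538, 3401, 7396 and 6926 and rose by 1.49 (SE 0.134, adjusted p 7.49e-07 by edgeR), whereas Cebpb had 2957, 2868, 2074 and 2260 and did not pass (log2 effect -0.22, adjusted p 0.293 by edgeR).

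Among the ligands, Cntf, ciliary neurotrophic factor, had 695, 643, 2437 and 2221 counts and rose by 2.01 in deficient (SE 0.164, adjusted p 2.59e-07 by edgeR). Ctf1, cardiotrophin 1, had 28 counts in wild type untreated and 293 to 356 in the other libraries, and its genotype call (log2 effect 1.97, adjusted p 0.0285 by edgeR) was lost without treatment in the model (adjusted p 0.287) and with low genes kept (0.092). Lif had 157, 311, 81 and 125 counts with a log2 effect of -0.93 that did not pass (adjusted p 0.171 by edgeR). Il6 had 1, 6, 14 and 9 counts, and Osm, the ligand of Osmr, had 20, 0, 45 and 35, too few to compare closely. With doxorubicin 0 of 26 were called higher and 1 lower.

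**Figure D3:**
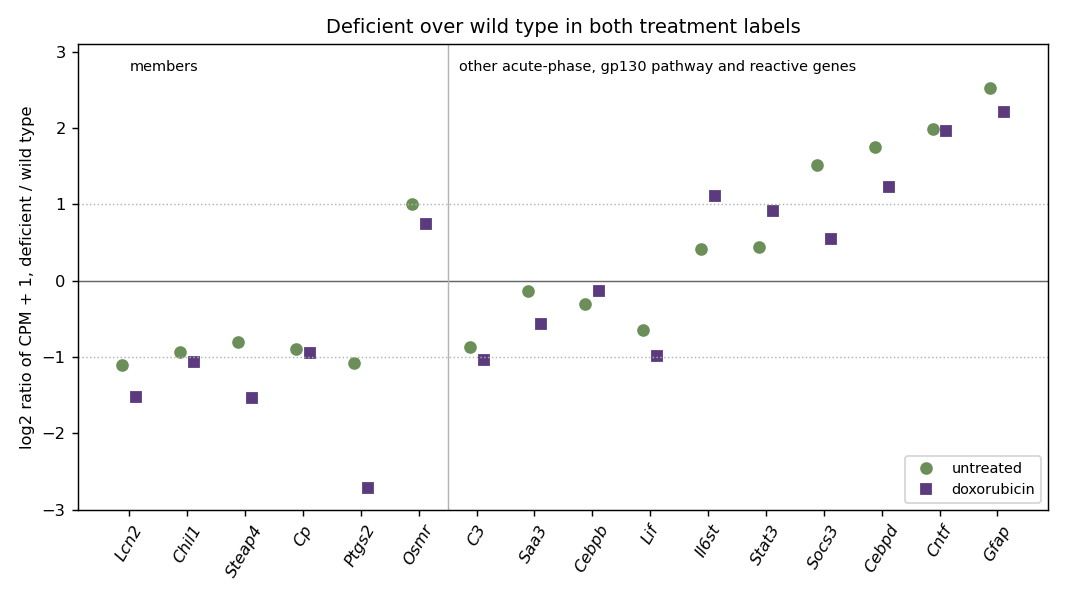
The y axis gives log2 ratios of CPM + 1, deficient over wild type, for 6 of the members and for other acute-phase, gp130 pathway and reactive genes, with circles for untreated and squares for doxorubicin libraries and dotted lines at a 2-fold difference. Lcn2, Chil1, Steap4, Cp, Ptgs2, C3, Saa3, Cebpb and Lif lie below 0 in both pairs. Osmr, Il6st, Stat3, Socs3, Cebpd, Cntf and Gfap lie above it in both pairs. The members Serpina3n, Ptx3 and Ttr are not drawn, and of these Ptx3 and Ttr were higher in deficient in both pairs.

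Inputs from interleukin-1 and tumour necrosis factor had 1 gene called higher and 5 lower of 21 tested by genotype. Tnfaip3, which codes for the NF-kB inhibitor A20, had 426, 587, 109 and 165 counts and a log2 effect of -1.69 (SE 0.344, adjusted p 0.00204 by edgeR). Nfkb2 had 758, 493, 179 and 213 and a log2 effect of -1.43 (SE 0.322, adjusted p 0.00409 by edgeR). The 1 gene called higher was Il1r1, an interleukin-1 receptor gene, with 222, 228, 455 and 606 counts. Its log2 effect was 1.43 (SE 0.307, adjusted p 0.00296 by edgeR). With doxorubicin 0 of 21 were called.

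Most other acute-phase genes were at low levels or at 0, and those called by genotype went both ways. Of 32 listed, 14 had a mean of at least 1 CPM and 8 had no count in any library, among them Saa1, Saa2 and Crp, which the liver makes. Saa3, the serum amyloid A gene made outside the liver, had 3206, 2265, 2531 and 1315 counts and was the 1 of 14 called with doxorubicin, with a log2 effect of -0.92 (SE 0.151, adjusted p 0.0176 by edgeR). By genotype 3 of 14 were called higher and 2 lower. Mt1 and Mt2, the metallothioneins, rose by 2.19 and 3.32 (adjusted p 6.04e-10 and 9.16e-11 by edgeR), and C3, the central complement component, had 18218, 16750, 8594 and 7028 counts and a log2 effect of -0.96 (SE 0.0988, adjusted p 3.58e-06 by edgeR).

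Other reactive astrocyte genes had 7 of 28 called higher and 5 lower in deficient, and 0 called with doxorubicin. Gfap, the intermediate filament gene of astrocytes, had 22712, 25639, 113415 and 102215 counts and rose by 2.37 (SE 0.0841, adjusted p 6.58e-11 by edgeR). Tgm1, a transglutaminase gene, had 34, 37, 948 and 725 counts and rose by 4.75 (SE 0.334, adjusted p 4.79e-08 by edgeR). Of 12 astrocyte markers, Gfap among them, 9 were called higher in deficient. All 12 summed to 4110, 4000, 11500 and 10100 CPM, of which Gfap was the largest part, and the 11 without Gfap summed to 2970, 2880, 4870 and 4950 CPM. The part of these markers in the members' values was not tested.

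Ttr codes for transthyretin, the carrier of thyroid hormone and of retinol-binding protein, whose level in blood drops in the acute phase and which the choroid plexus makes in large amounts. The gene is ENSMUSG00000061808.4 on GRCm38 chromosome 18, 20665280 to 20674321, plus strand. It had 3701, 2212, 4687 and 2861 counts, or 186, 96.6, 272 and 145 CPM. Both doxorubicin libraries lay below both untreated ones, at 52.0% of untreated in wild type (49.3 to 54.8%) and 53.1% in deficient (50.7 to 55.7%). Deficient was above wild type, at 146% untreated (140 to 153%) and 150% with doxorubicin (142 to 158%).

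Markers of the choroid plexus were present at low levels. The 14 markers summed to 112, 60.1, 184 and 128 CPM, and the most abundant of them was Enpp2, an enzyme gene also known as autotaxin, with 1361, 539, 1806 and 1099 counts. Without Enpp2 they summed to 43.8, 36.5, 78.9 and 72.8 CPM, so the lower sum with doxorubicin was mostly Enpp2. With doxorubicin 7 of 11 markers tested were below 0 in wild type and 6 of 11 in deficient. Enpp2 was the 1 of 11 markers tested that was called with doxorubicin, with a log2 effect of -1.22 (SE 0.196, adjusted p 0.0147 by edgeR), and 5 of 11 rose with genotype, Enpp2 among them. Without treatment in the model the genotype call of Enpp2 was lost (adjusted p 0.287 by edgeR). The folate receptor gene Folr1 had 196, 179, 359 and 447 counts and the Wnt inhibitor gene Sostdc1 149, 108, 298 and 271. Kl, with 131, 36, 71 and 19 counts, and Kcne2, too low to test, with 16, 0, 15 and 0, were lower with doxorubicin in both genotypes, as Ttr was. Kcnj13, with 9, 51, 147 and 137, was higher with doxorubicin in wild type. No marker was at 0 in every library, and the part of choroid plexus cells in the Ttr values was not tested. Partners of transthyretin in thyroid hormone and retinol transport had 3 of 10 called higher in deficient and 0 called with doxorubicin.

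**Figure D4:**
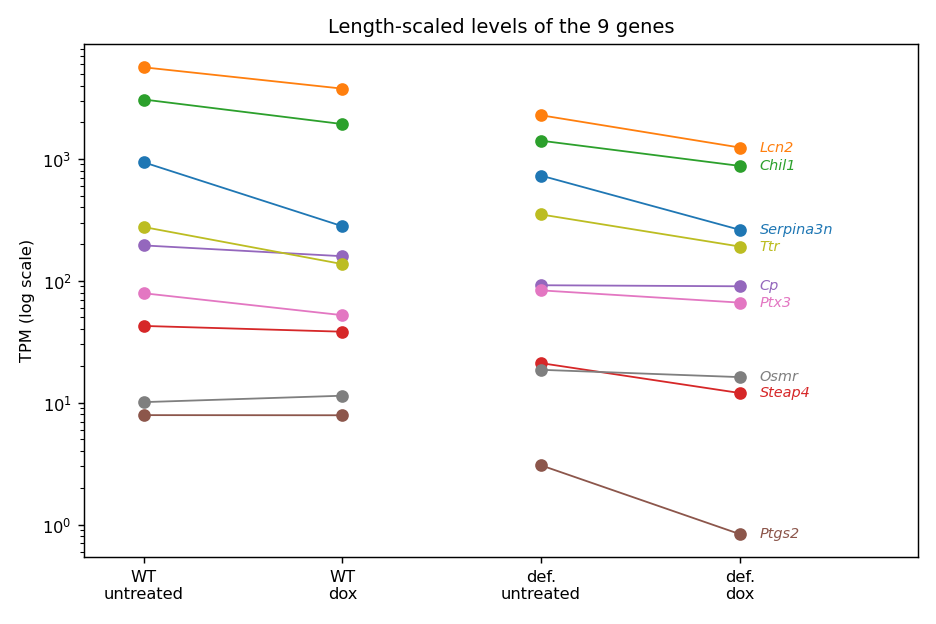
The y axis gives the deposited TPM on a log scale, which corrects for transcript length, in the single library of each group, with lines joining untreated to doxorubicin of 1 genotype (WT, wild type; def., deficient; dox, doxorubicin). Lcn2 and Chil1 are the most abundant members in each library and Ptgs2 the least, from 7.90 TPM in wild type untreated to 0.835 TPM in deficient with doxorubicin.

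Ordered by TPM in wild type untreated, the members were Lcn2 (5640), Chil1 (3070), Serpina3n (937), Ttr (276), Cp (195), Ptx3 (79.0), Steap4 (42.6), Osmr (10.1) and Ptgs2 (7.90). In deficient with doxorubicin the order differed for Osmr at 16.2 TPM, which lay above Steap4. Ttr stood above Cp in 3 of the 4 libraries and below it in wild type with doxorubicin, at 137 and 159 TPM.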

How the data were processed

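Per the labels' protocols, libraries of 4 primary mouse astrocyte cultures were made with SMART-Seq v4, a kit without strand marks. Each library has a table of estimated counts and one of length-corrected TPM that the authors deposited, per the file headers. The submitters' processing notes name DRAGEN and GRCm38. The software version, annotation and filters were not given in the sources used here. Those estimated counts are not normalized, hold fractions in 5810 to 6451 genes per library and were rounded. The TPM total is equal in the 4 tables.

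Identifiers were matched without version to GENCODE vM21, 55227 of 55487 of them. Groups followed the genotype and treatment labels. Counts were scaled to CPM with TMM factors of edgeR (0.9805 to 1.02). A count of 0 allows up to 3 counts, or 0.131 to 0.174 CPM. SMART-Seq v4 reads carry no molecular identifiers, so copies of 1 molecule are not told apart from separate molecules. Intervals and floors describe counting error of reads alone and may be too narrow for molecules. Differences by size were log2 ratios of at least 1 or at most -1. For 15596 genes, genotype and treatment entered 1 additive edgeR quasi-likelihood model, with calls at a Benjamini-Hochberg adjusted p of at most 0.05. On simulated counts for 15596 genes, the additive doxorubicin fit recovered 95 of 100 genes changed 2-fold and 100 of 100 changed 4-fold, with 13 false calls, and the genotype fit 93 and 100, with 6. The simulation gave every gene the same dispersion, set by hand, and changed only the factor under test. These shares therefore do not carry over to the real fits. There Bcl3, with a doxorubicin log2 effect of -2.32, was not called, and a gene not called is not shown to be unchanged.

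The members, the 17 gene lists and the tests were chosen with earlier results of these data known. Genes named beside the members were the 3 of each list with the largest absolute effect of either factor at a mean of at least 5 CPM, a fixed set of pathway genes, and the 5 nearest to Serpina3n. Some genes this rule names are left out for length or are not reported here, and Serpina3m, C1qb, Chil3, Chit1, Chia1, Mmp8, S100a8 and genes listed at 0 were named after their values were seen. The alternatives tried were scaling by DESeq2 size factors or by total counts, 0.5 or 5 CPM added, TPM with 1 TPM added, other minimum levels, the DESeq2 and limma-voom tests, and no covariate. Software was R 4.3.3, edgeR 4.0.16, DESeq2 1.42.0, limma 3.58.1 and scipy 1.17.1.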

Additional observations from a re-analysis of the deposited data

Results flagged for a closer look

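Doxorubicin and untreated libraries differed in opposite directions in wild type and in deficient for 9 of the named genes and for none of the 9 members. Each counting interval lay on its own side of equality, and these intervals hold counting error alone. The share over all genes tested was not counted, so nothing is read from these counts or from their contrast with the members. Each genotype has 1 library per treatment, so these differences were not tested. The values are log2 ratios of CPM + 1 in wild type and in deficient, then their difference, deficient minus wild type. In the gp130 pathway, Socs3 stood at 0.48 and -0.51 (difference -0.98), Cebpd at 0.22 and -0.29 (-0.51) and Il6st at -0.36 and 0.32 (0.69). The metallothioneins Mt1 and Mt2 stood at 0.18 and -0.23 (-0.41) and at 0.17 and -0.22 (-0.39). The thyroid hormone transporter gene Slco1c1 stood at -0.46 and 0.24 (0.71), and the astrocyte water channel gene Aqp4 at -0.18 and 0.10 (0.28). The ciliary gene Rsph1 stood at 0.85 and -0.22 (-1.06), and the meningeal factor gene Foxc1 at -0.32 and 0.49 (0.81).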

How the results depend on the processing

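No paired analysis was possible because each group has 1 library and the number in a title follows the treatment, and no replicate could be left out for the same reason. The log2 ratios of the members kept their sign under the scalings and pseudocounts run, except for a pair near 0: Ptgs2 with doxorubicin in wild type (0.03, at 0 on TPM) and Serpina3n between the doxorubicin libraries (0.00, down to -0.10 on TPM). With TPM in place of CPM, which put the all-gene median of deficient over wild type untreated at -0.21, the members' median became -0.58 for doxorubicin in wild type, -0.98 for deficient over wild type untreated and -0.81 with doxorubicin, with 2 members at least 2-fold lower in the first and 4 lower and 0 higher in the second. With 5 CPM added, 1 member was at least 2-fold lower with doxorubicin in deficient, and 1 was lower and 0 higher in deficient untreated; scaled by total counts, 0 were higher there. The median difference of the doxorubicin responses, -0.13, became -0.17 with DESeq2 size factors and -0.02 on TPM. The additive doxorubicin calls, 3 higher and 22 lower, became 6 higher with DESeq2, 17 higher and 67 lower with limma-voom, 26 and 73 at a mean of at least 5 CPM, 10 lower with no minimum and 0 and 0 without genotype in the model (100 genes at an unadjusted p under 0.05 in that edgeR fit). The doxorubicin calls of C1qb, Saa3, Enpp2 and Hpgd were lost with no minimum (adjusted p 0.163, 0.110, 0.102 and 0.127 by edgeR). Genes tested numbered 28077 with no minimum and 12048 at a mean of at least 5 CPM. Why the calls changed with the minimum was not tested. Counts of genotype calls stayed within 1.5-fold. Ptgs2, at 53 counts in deficient with doxorubicin, is the member whose ratios depth limits most.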

Other observations

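Markers of the oligodendrocyte lineage were higher in both deficient libraries, with 10 of 11 tested called higher by genotype (edgeR) and summed levels of 474, 348, 1080 and 1080 CPM in wild type untreated, wild type with doxorubicin, deficient untreated and deficient with doxorubicin. Sox10, the lineage's transcription factor, had 25, 0, 244 and 278 counts, and Mag, a myelin gene, had 20, 28, 182 and 283. Of 7 neuron markers tested, 5 were called higher, among them Tubb3, a neuronal tubulin gene, with 782, 522, 1766 and 1674 counts. Of the 16 microglia markers, 1 was called higher (Tmem119) and 2 lower (Itgam and Csf1r) in deficient. Ependymal markers had 1 of 8 called lower (Ccdc153), endothelial and pericyte markers 1 of 4 called lower (Tek, named after its values were seen), and fibroblast and meningeal markers 0 of 11. Relatives of the members had 2 of 11 called higher and 1 lower, and the 1 neutrophil marker tested was not called. In these lists other than that of microglia, 0 genes were called with doxorubicin. The part of these cell types in the members' values was not tested.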
